A study of Homo sapiens with 10 samples.

Results

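The loci of YAP1, WWTR1, TEAD1, and TEAD4 were examined in ChIP-seq peak lists of 5 transcription factors from ER-Src cells. ER-Src cells are MCF-10A, a non-tumorigenic human mammary epithelial line, with v-Src, a viral tyrosine kinase oncoprotein, fused to the tamoxifen-binding domain of the estrogen receptor. Every sample, the controls included, carries this fusion. Non-transformed cells were not given the inducer, and the library names call them ethanol-grown for 36 h. Transformed cells had 1 µM 4-hydroxy-tamoxifen for 12 h, which turns on the fused kinase. FOS, JUN, JUNB, NFKB1, and STAT3 have 1 library each in non-transformed and in transformed cells, which makes 10 lists. A peak is a stretch where MACS found more reads than in the surroundings, and its summit is the position with the most. A peak was a member when its summit lay in chr11:101950000-102130000 (YAP1), chr3:149220000-149480000 (WWTR1), chr11:12660000-12980000 (TEAD1), or chr12:3040000-3170000 (TEAD4), in hg19 coordinates. This gave 638 of the 880198 deposited peaks. A summit in a window is not assigned to the gene, since no annotation of that build was used. Binding by YAP, TAZ, or TEAD proteins was not analysed here.

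YAP, encoded by YAP1, and TAZ, encoded by WWTR1, are paralogous co-activators at the end of the Hippo pathway, a kinase cascade that restrains growth. When the cascade is active, LATS kinases phosphorylate YAP and TAZ and keep them in the cytoplasm. When it is inactive, they enter the nucleus and bind TEAD proteins, which recognize DNA, and the complexes switch on genes for growth and survival. In epithelial cells these sites often lie beside AP-1 sites. FOS, JUN, and JUNB are AP-1 subunits and bind DNA as dimers. NFKB1 is a subunit of NF-κB, and STAT3 is a factor that cytokine receptors and Src activate by tyrosine phosphorylation. The STAT3 antibody has a catalogue number that the study's antibody list gives for the phosphorylated protein.

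RefSeq promoters are shown first, as the stretches through which these genes are read out. The 250 bases before the start were available for YAP1 once and for WWTR1 at 2 starts (GRCh38.p14), and for 2 of the 4 genes in all. The sequences of the YAP1 promoter, chr11:102110197-102110446 on the plus strand, and of the second WWTR1 promoter, chr3:149658026-149658275 on the minus strand, run 5′ to 3′ in the direction of transcription. Capitals mark a match to AP-1 (TGANTCA), STAT (TTCNNNGAA), or TEAD (GGAATG) on either strand.
YAP1 promoter: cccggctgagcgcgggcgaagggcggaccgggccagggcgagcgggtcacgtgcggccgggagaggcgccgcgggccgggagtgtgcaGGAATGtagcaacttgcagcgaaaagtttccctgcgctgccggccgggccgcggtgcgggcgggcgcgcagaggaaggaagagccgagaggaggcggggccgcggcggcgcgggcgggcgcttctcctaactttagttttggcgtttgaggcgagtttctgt
WWTR1 promoter: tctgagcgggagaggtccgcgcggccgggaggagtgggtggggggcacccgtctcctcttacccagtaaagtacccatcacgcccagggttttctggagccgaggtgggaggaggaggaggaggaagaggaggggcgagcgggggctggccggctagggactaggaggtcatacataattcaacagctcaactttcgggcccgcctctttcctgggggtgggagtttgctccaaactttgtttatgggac
The YAP1 promoter held 1 match, to the TEAD motif, beginning at -162 from the start. Neither WWTR1 promoter held a match to any of these motifs. Among 35116 promoters of this length, 6.57% held the AP-1 letters, 6.57% the STAT letters, and 11.9% the TEAD letters. A loose NF-κB motif, not capitalized, matched 0 times in the YAP1 promoter, 3 times in the second WWTR1 promoter, and 1 time in the first, and 54.4% of promoters held it. These promoters are in another build than the peaks and were not laid over them, and a match is a description of letters and not a bound site.

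The libraries held 4837474 to 22082403 reads after the authors' filter and the lists 13252 to 164605 peaks on chromosomes 1 to 22 and X. With 1 library per protein and state no value has a replicate, so no difference was tested, and each comparison is between 2 libraries. The transformed library had 2.0 times the reads of the non-transformed one for NFKB1, 1.72 times for JUNB, 1.19 times for FOS, 1.16 times for JUN, and 0.821 times for STAT3. Depth and state therefore cannot be told apart in counts of peaks, and a site missing from a list lay under the caller's threshold and may still be bound. The non-transformed and transformed libraries of STAT3 carry different replicate labels, repB1 and repA. They kept 53.3% and 77.1% of reads, with fragments of 150 and 119 bp. Those of JUNB are repC and repA, with 50.1% and 68.9% kept and 123 and 129 bp. The pairs of FOS, JUN, and NFKB1 each share a label. Such library differences cannot be told apart from state in the levels either. To compare levels, the pileup at the summit (the number of extended reads there) was divided by the filtered reads and multiplied by 1000000, which is written RPM. Intervals on ratios are exact 95% counting intervals, and intervals on medians are 95% order-statistic intervals over sites. Neither includes the spread between cultures.

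Summed over the 5 factors, YAP1, WWTR1, and TEAD1 had more peaks per length than the genome, and TEAD4 had fewer. Peak density over both states was 2.75 times the genome's at YAP1, 2.10 times at WWTR1, 2.67 times at TEAD1, and 0.496 times at TEAD4. Single factors could differ from this sum. STAT3 at TEAD4 was at 1.46 times the genome's density in non-transformed and 1.04 times in transformed cells. NFKB1 had 0 peaks at YAP1 in non-transformed cells. Each locus had more peaks in the transformed lists. YAP1 had 56 in non-transformed and 105 in transformed cells, WWTR1 71 and 107, TEAD1 112 and 166, and TEAD4 5 and 16. The lists themselves are longer in transformed cells, and relative to the genome of the same state the density was 2.53 and 2.88 times at YAP1, 2.22 and 2.03 times at WWTR1, 2.84 and 2.56 times at TEAD1, and 0.312 and 0.607 times at TEAD4. Relative density was thus higher in transformed cells at YAP1 and TEAD4 and lower at WWTR1 and TEAD1.

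**Figure D1:**
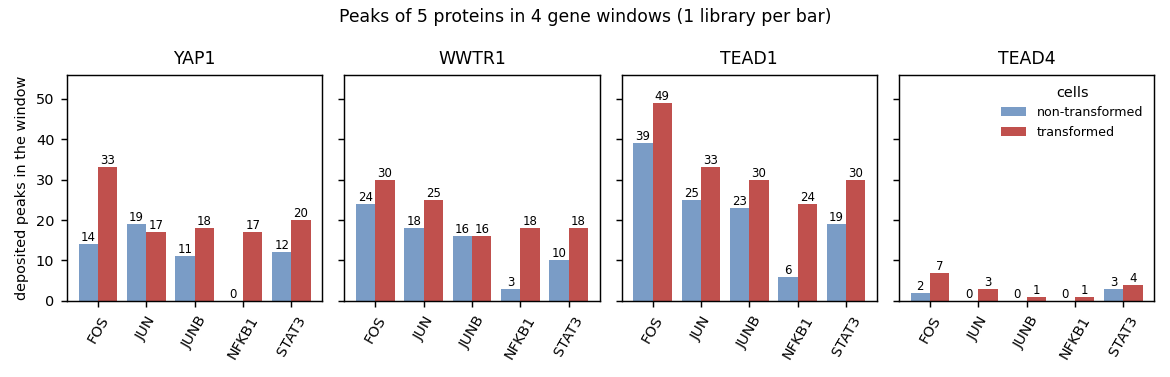
Number of deposited peaks (vertical axis) of each protein (horizontal axis) in the 4 windows, with 1 bar per library, blue for non-transformed and red for transformed cells. NFKB1 had 0, 3, 6, and 0 peaks in non-transformed cells at YAP1, WWTR1, TEAD1, and TEAD4, and 17, 18, 24, and 1 in transformed cells.

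The proteins contributed unequally. FOS had the most peaks, 79 in the non-transformed and 119 in the transformed list over the 4 loci, followed by JUN with 62 and 78, JUNB with 50 and 65, STAT3 with 44 and 72, and NFKB1 with 9 and 60. JUN at YAP1 was the only case with fewer peaks in transformed cells, 17 against 19, and JUNB at WWTR1 had 16 in both. At YAP1 the numbers differed most for FOS, 14 against 33, and NFKB1, 0 against 17. The median FOS pileup there was 2.74 RPM in non-transformed and 0.725 in transformed cells, and the genome-wide medians were 0.859 and 0.725. These 2 YAP1 medians cover different sets of 14 and 33 peaks. At the 13 YAP1 sites (defined below) with FOS in both states, the medians were 3.01 and 2.63 RPM. The median ratio at these sites was 0.868 (interval 0.631 to 1.47). At the 20 sites with FOS in transformed cells only, the median was 0.521 RPM.

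Summits of all 10 lists with 150 bp on each side were merged where they overlapped, which gave 175 sites, numbered by position within a locus: 46 at YAP1, 49 at WWTR1, 71 at TEAD1, and 9 at TEAD4. The genome had 248897 sites by the same rule, or 9.22 per 100 kb, against 25.6 at YAP1, 18.8 at WWTR1, 22.2 at TEAD1, and 6.92 at TEAD4. The spacing of sites varied and was not compared with random placement. The densest 20 kb held 14 sites at WWTR1 (sites 13 to 26, chr3:149290566-149307429), 11 at TEAD1 (sites 5 to 15, chr11:12698658-12717467), 9 at YAP1 (sites 3 to 11, chr11:101980510-101991394), and 4 at TEAD4 (sites 1 to 4, chr12:3053823-3069089). The longest stretch without a site was 40.2 kb at WWTR1, 40.4 kb at TEAD4, 24.6 kb at YAP1, and 16.6 kb at TEAD1.

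**Figure D2:**
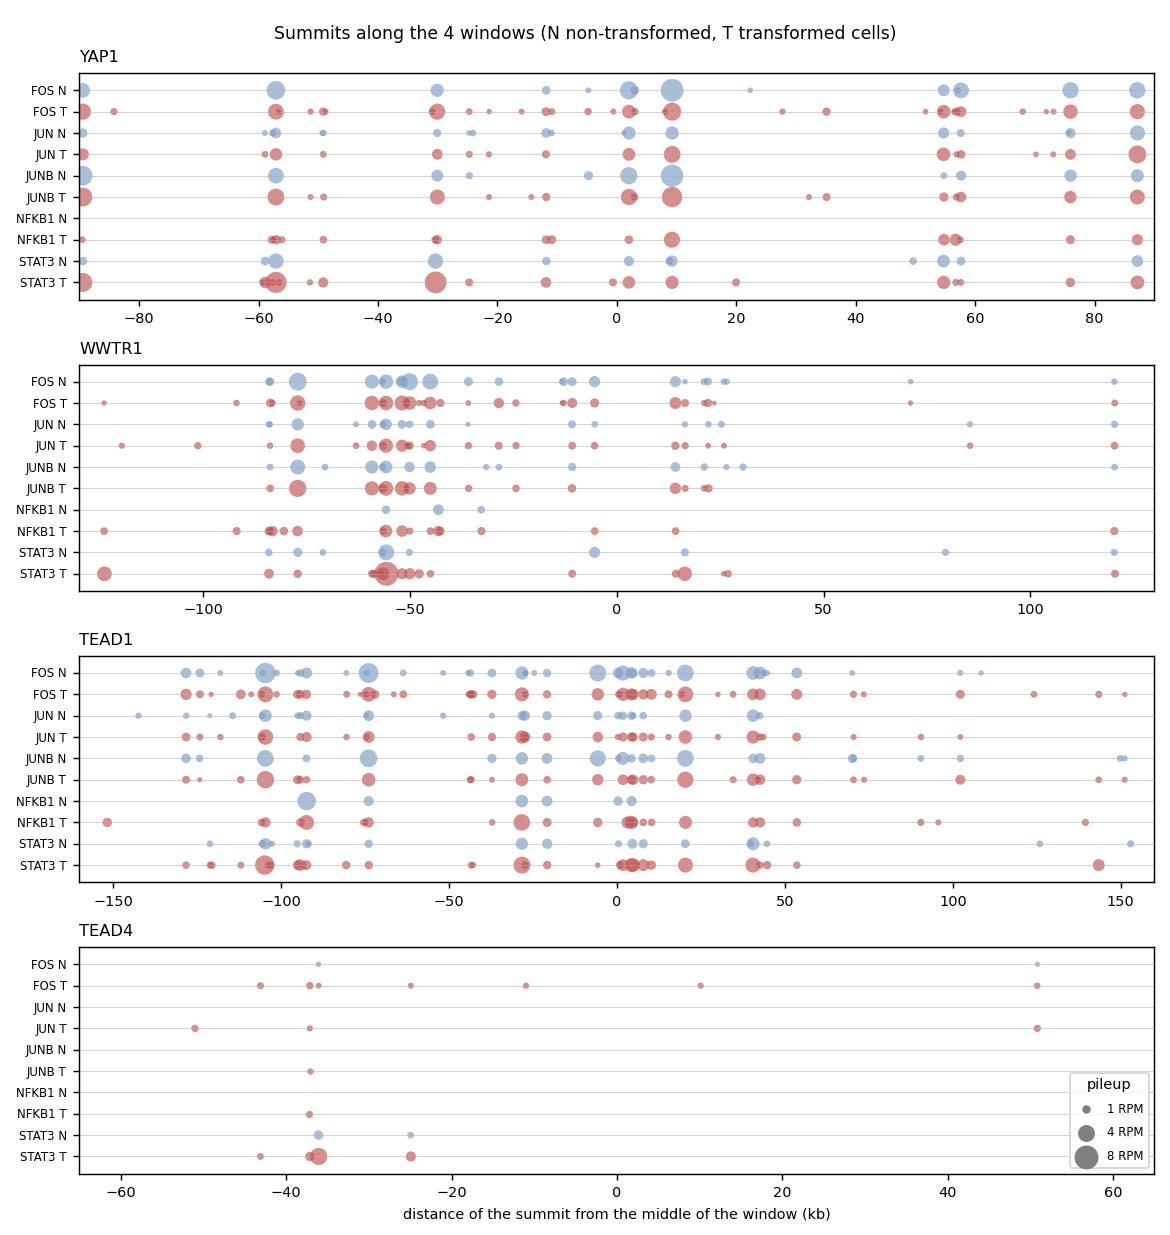
Position of every member summit along the 4 windows, as distance in kb from the middle of the window (horizontal axis), with 1 row per list (N non-transformed, T transformed cells) and dot area in proportion to the pileup in RPM. Columns of dots are sites shared by several lists, and the NFKB1 row of non-transformed cells is empty at YAP1 and TEAD4.

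Most sites were present in both states or were added in the transformed lists. Of the 175 sites, 83 had summits in both states (genome 50.5%), 66 in transformed cells only (genome 34.6%), and 26 in non-transformed cells only (genome 37280 of 248897). By protein, FOS had a summit in transformed cells only at 51 of 127 FOS sites (40.2%), against 34.5% of FOS sites in the genome. JUN did so at 27 of 85 (31.8%, genome 43.2%) and JUNB at 25 of 75 (33.3%, genome 37.3%). STAT3 did so at 40 of 84 (47.6%, genome 53%) and NFKB1 at 48 of 57 (84.2%, genome 82%). The JUN share lay farthest from the genome's and the NFKB1 share nearest to it, and no difference was tested. The opposite case, a summit in non-transformed cells only, was seen at 11 FOS sites (8.66%, genome 10.7%), 10 JUN sites (11.8%, genome 11.6%), 12 JUNB sites (16%, genome 15.8%), 13 STAT3 sites (15.5%, genome 13.2%), and 1 NFKB1 site (1.75%, genome 1.79%).

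A protein is called added at a site where it was listed in transformed cells only, and lost where it was listed in non-transformed cells only. Added sites had low levels, here as across the genome. Their median pileup in transformed cells was 0.543 RPM for FOS, 0.596 for JUN, 0.698 for JUNB, 0.781 for STAT3, and 1.03 for NFKB1. At sites listed in both states the transformed medians were higher, at 1.18, 1.11, 1.71, 2.23, and 1.91 RPM. In the same order, the genome's added sites had medians of 0.453, 0.542, 0.635, 1.00, and 0.827 RPM. The genome's sites of both states had 1.13, 1.03, 1.46, 2.12, and 2.07 RPM. The lowest NFKB1 level in the non-transformed list at these loci was 0.827 RPM, and 37 of the 48 added NFKB1 sites reached it in transformed cells (genome 59.8%). For each other protein the level was likewise the lowest of its own non-transformed list at these loci. It was reached at 38 of 40 added sites for STAT3 (genome 99.4%) and 48 of 51 for FOS (genome 72.8%). The count was 27 of 27 for JUN (genome 95.1%) and 18 of 25 for JUNB (genome 69.4%). The JUN count could not be lower. The lowest JUN level at these loci was 0.434 RPM in transformed and 0.378 RPM in non-transformed cells. With every list cut to its 13252 most significant peaks, FOS had 5 added sites, JUN 2, JUNB 3, NFKB1 6, and STAT3 1. Genome shares were not counted for these cut lists.

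At sites listed in both states, STAT3 and JUN had higher levels in transformed cells, as they had across the genome, and FOS and JUNB did not. The median ratio of pileup in RPM, transformed over non-transformed, was 1.63 for STAT3 (31 sites, interval 1.34 to 2.03, genome 1.71). It was above 1 at 27 of the 31 sites (genome 83.2%) and at least 2 at 10 (genome 39.1%), and at most 0.5 at 0 (genome 0.978%). For JUN it was 1.29 (48 sites, interval 1.18 to 1.36, genome 1.29), above 1 at 40 of 48 (genome 74.5%), at least 2 at 2 (genome 14.8%), and at most 0.5 at 0 (genome 0.807%). The FOS ratio was 1.01 (65 sites, interval 0.868 to 1.11, genome 0.949), above 1 at 35 of 65 (genome 45.4%), at least 2 at 3 (genome 8.54%), and at most 0.5 at 3 (genome 5.99%). The JUNB ratio was 1.01 (38 sites, interval 0.923 to 1.26, genome 0.964), above 1 at 19 of 38 (genome 46.3%), at least 2 at 0 (genome 7.74%), and at most 0.5 at 2 (genome 7.02%). By locus the JUNB ratio was 1.12 at YAP1 (interval 0.889 to 1.62), above 1 at 5 of 9 sites. At WWTR1 it was 1.29 (interval 1.04 to 1.41), above 1 at 9 of 10. At TEAD1 it was 0.923 (interval 0.583 to 1.08), above 1 at 5 of 19. Differences between loci were not tested. NFKB1 had 8 such sites with a ratio of 1.10 (interval 0.652 to 2.20, genome 1.03), above 1 at 5 (genome 54.6%), at least 2 at 1 (genome 9.26%), and at most 0.5 at 0 (genome 5.92%). When the genome-wide median of each protein was set to 1, STAT3 at these loci was at 0.952 and JUN at 1, so neither was higher here than at its sites across the genome. By fold enrichment over local background in place of pileup in RPM, JUNB was at 1.27 (genome 1.27) and NFKB1 at 1.62 (genome 1.65).

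**Figure D3:**
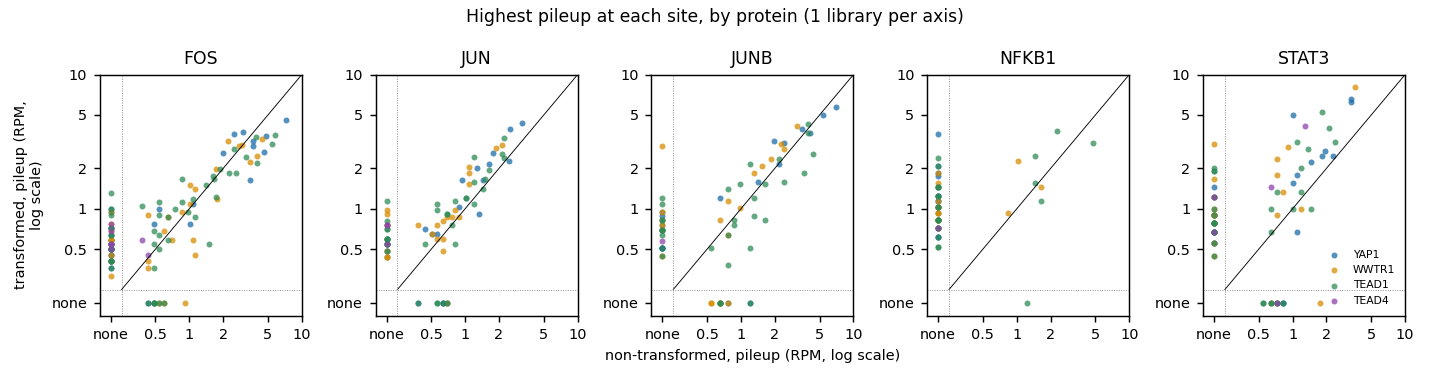
Highest pileup in RPM at each site in non-transformed (horizontal axis) and transformed cells (vertical axis), both on log scales, for the 5 proteins, coloured by locus. Points on the diagonal have equal levels, and points at "none" beyond the dotted lines have no summit in that list. STAT3 and JUN lie mostly above the diagonal, with medians of 1.63 and 1.29, and NFKB1 lies mostly at none in non-transformed cells.

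YAP1 site 28, chr11:102049056-102049400, had the highest levels of FOS and JUNB in the YAP1 window in both states. FOS had a pileup of 135 reads (7.25 RPM) in non-transformed and 101 reads (4.57 RPM) in transformed cells, a ratio of 0.631 (interval 0.483 to 0.822). It was the FOS peak of rank 197 in the first list and 435 in the second, by significance. JUN went the other way, with 40 and 73 reads, a ratio of 1.57 (interval 1.05 to 2.37). JUNB had 64 and 91 reads, a ratio of 0.829 (interval 0.595 to 1.16), and STAT3 had 20 and 22 reads, a ratio of 1.34 (interval 0.698 to 2.59). Both intervals include 1. NFKB1 was unlisted in non-transformed cells and had 35 reads (3.62 RPM) in transformed cells, its highest level in the window. The 9 summits lay within 44 bp.

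STAT3 was highest in the YAP1 window at sites 13 and 6 in both states. At site 13, chr11:102009420-102010079, it had 36 and 59 reads, a ratio of 2.0 (interval 1.30 to 3.11), with its summits 288 and 266 bp from those of FOS. At site 6, chr11:101982739-101983122, it had 36 and 56 reads, a ratio of 1.90 (interval 1.23 to 2.97). FOS differed between these sites. At site 6 it had 90 and 77 reads, a ratio of 0.721 (interval 0.525 to 0.989), and at site 13 it had 46 and 80 reads, a ratio of 1.47 (interval 1.01 to 2.16). The largest STAT3 ratio of the 4 loci was at YAP1 site 1, chr11:101950341-101950728, near the edge of the window. STAT3 there had 11 and 45 reads (1.01 and 5.02 RPM), a ratio of 4.99 (interval 2.54 to 10.7). FOS had 56 and 82 reads at that site (1.23, interval 0.868 to 1.77) and JUNB 49 and 78 (0.928, interval 0.641 to 1.35). JUN had 20 and 37 (1.59, interval 0.899 to 2.89). The STAT3 interval lies above those of FOS and JUNB and overlaps that of JUN, but this is the largest of 31 STAT3 ratios. The genome-wide median STAT3 ratio was 1.71.

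The strongest JUN peaks of the YAP1 window were at site 46, chr11:102126981-102127318, with 51 and 81 reads and a ratio of 1.36 (interval 0.949 to 1.98). They were of rank 232 and 107 in the JUN lists. NFKB1 had a summit at 15 YAP1 sites, each in transformed cells only (genome 82%). At 14 of these an AP-1 protein was already listed in non-transformed cells (genome 73.6%). Besides site 28, site 39 (chr11:102096575-102097235) had the highest NFKB1 level of this kind, 20 reads (2.07 RPM), where FOS had 10 and 22 reads at summits 255 bp apart and JUN, JUNB, and STAT3 were listed in transformed cells only. STAT3 was added at 10 of its 22 YAP1 sites (45.5%, genome 53%). Its highest levels among these were at site 10 (chr11:101990501-101991048), 13 reads or 1.45 RPM, and at site 45 (chr11:102115502-102116117), 11 reads or 1.23 RPM. FOS was added at 20 of its 34 YAP1 sites (58.8%, genome 34.5%), at 0.996 RPM or less.

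In the WWTR1 window site 17, chr3:149293961-149294413, was the only site with summits in all 10 lists, and it held the highest STAT3 level of the 4 loci. STAT3 had 39 reads (3.57 RPM) in non-transformed and 72 (8.03 RPM) in transformed cells, a ratio of 2.25 (interval 1.5 to 3.41). NFKB1 had 5 and 22 reads, a ratio of 2.20 (interval 0.813 to 7.44). FOS had 55 and 66 reads (1.01, interval 0.697 to 1.47), JUN 30 and 52 (1.49, interval 0.932 to 2.42), and JUNB 21 and 48 (1.33, interval 0.782 to 2.34). The STAT3 interval alone lies above 1, and it includes the genome-wide median STAT3 ratio of 1.71. The site is in the densest part of the window, with sites 18, 19, 21, and 25.

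Of these neighbours, site 19 (chr3:149297872-149298188) had 3 added proteins. JUNB had 46 reads (2.92 RPM), NFKB1 18 (1.86 RPM), and STAT3 15 (1.67 RPM), each in transformed cells only. JUN had 17 and 38 reads there, a ratio of 1.92 (interval 1.06 to 3.63), and FOS 41 and 70 (1.44, interval 0.965 to 2.17). At site 21 (chr3:149299523-149300051) FOS was lower in transformed cells, with 74 and 55 reads and a ratio of 0.627 (interval 0.434 to 0.900), and STAT3 had 8 and 16 reads (2.44, interval 0.984 to 6.58). Site 25 (chr3:149306621-149306963) held NFKB1 alone, with 8 and 14 reads, or 1.65 and 1.45 RPM. Site 18 (chr3:149297518-149297818) held FOS alone, with 17 reads, in non-transformed cells only.

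The strongest AP-1 peaks of the WWTR1 window were at site 8, chr3:149272604-149272979. FOS had 83 and 73 reads (ratio 0.742, interval 0.534 to 1.03), JUN 34 and 55 (1.39, interval 0.890 to 2.20), and JUNB 29 and 65 (1.31, interval 0.831 to 2.10). STAT3 at this site had 13 and 9 reads, in the top 34.3% and the top 68.6% of its lists by significance. NFKB1 was listed in transformed cells only, with 15. The AP-1 maximum and the STAT3 maximum of this window were thus at different sites. STAT3 was added at 11 of its 21 WWTR1 sites (52.4%, genome 53%). It was highest among these at site 1 (chr3:149225811-149226197), with 27 reads or 3.01 RPM. The AP-1 proteins had no more there than a weak FOS peak of 9 reads in transformed cells. STAT3 was lost from the list at 3 of the 21 (14.3%, genome 13.2%), including site 35 (chr3:149344438-149344786), with 19 reads or 1.74 RPM in non-transformed cells. FOS stayed listed at site 35, with 33 and 26 reads.

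The TEAD1 window had the most sites, and 5 of the 6 sites with summits in all 10 lists. Site 12, chr11:12715014-12715577, was its highest site for FOS in both states and for JUN, JUNB, and STAT3 in transformed cells. FOS had 108 reads (5.80 RPM) and 78 (3.53 RPM), a ratio of 0.609 (interval 0.449 to 0.822), and STAT3 20 and 47, a ratio of 2.86 (interval 1.66 to 5.10). JUN had 35 and 62 reads (1.52, interval 0.990 to 2.37) and JUNB 36 and 67 (1.08, interval 0.713 to 1.67). The merged site is 564 bp long, and the STAT3 summits of the states lay 263 bp apart in it, at 65 bp from the FOS summit in non-transformed and 202 bp in transformed cells. The STAT3 ratio there therefore compares different positions. Site 25, chr11:12745925-12746280, had all 10 lists and lower levels of 2 AP-1 proteins in transformed cells. FOS had 102 and 67 reads (0.554, interval 0.401 to 0.761) and JUNB 40 and 40, which in RPM is a ratio of 0.583 (interval 0.366 to 0.927). STAT3 had 11 and 9 reads there (0.997, interval 0.365 to 2.65).

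NFKB1 reached its highest levels of the 4 loci at TEAD1. At site 19, chr11:12727404-12727814, it had 23 reads (4.75 RPM) in non-transformed and 30 (3.10 RPM) in transformed cells, a ratio of 0.652 (interval 0.366 to 1.18). At site 34, chr11:12791542-12791923, it had 11 and 37 reads, a ratio of 1.68 (interval 0.840 to 3.66). Both intervals include 1. At site 34 JUN had 19 and 45 reads (2.03, interval 1.17 to 3.68) and STAT3 23 and 36 (1.91, interval 1.10 to 3.37), with FOS at 46 and 62 (1.14, interval 0.764 to 1.70). At site 48, chr11:12840200-12840583, NFKB1 was added with 23 reads, or 2.38 RPM, and STAT3 had 12 and 28 reads (2.84, interval 1.40 to 6.14). Site 42, chr11:12823044-12823344, was listed for NFKB1 alone, with 20 reads in transformed cells. At site 52, chr11:12860336-12860690, where STAT3 was highest in non-transformed cells, it had 26 and 28 reads (1.31, interval 0.742 to 2.33).

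Proteins were both lost and added at TEAD1 sites. Site 39, chr11:12820117-12820605, was the only one at the 4 loci to lose NFKB1 from the list, with 6 reads in non-transformed cells. JUNB with 6 reads and STAT3 with 8 were also listed there in non-transformed cells only. FOS had 28 and 12 reads at that site, a ratio of 0.361 (interval 0.167 to 0.734), the lowest FOS ratio of the 65. STAT3 was added at 17 of its 36 TEAD1 sites (47.2%, genome 53%). Its highest levels among these were at site 68 (chr11:12963268-12963600), 18 reads or 2.01 RPM, and at site 18 (chr11:12725585-12725954), 17 reads or 1.90 RPM. Site 18 had FOS and JUN in both states, and site 68 had no AP-1 summit in non-transformed cells. STAT3 was lost from the list at 7 TEAD1 sites (19.4%, genome 13.2%).

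TEAD4 had 9 sites, and its non-transformed lists held 2 FOS and 3 STAT3 peaks and none of JUN, JUNB, or NFKB1. The strongest site was site 4, chr12:3068759-3069089, where STAT3 had 14 reads (1.28 RPM) in non-transformed and 37 (4.13 RPM) in transformed cells, a ratio of 3.22 (interval 1.70 to 6.45). FOS had 8 and 10 reads at this site, a ratio of 1.05 (interval 0.375 to 3.07), and JUN and JUNB were not listed in either state. STAT3 thus had more reads than FOS at this site in both states. Site 5, chr12:3079904-3080229, also had STAT3 in both states, with 7 and 13 reads (2.26, interval 0.839 to 6.70), and FOS in transformed cells only.

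All 5 proteins met at 1 TEAD4 site, site 3 (chr12:3067629-3068014), where no protein was listed in non-transformed cells. In transformed cells FOS had 17 reads, JUN 10, JUNB 9, NFKB1 7, and STAT3 11, with the 5 summits within 85 bp. These are weak peaks, and their ranks by significance fell between the top 45.1% (FOS) and the top 75.8% (JUNB) of their lists. Site 2 (chr12:3061737-3062045) had FOS with 15 reads and STAT3 with 6 in transformed cells only, and site 1 (chr12:3053823-3054123) had JUN alone with 14.

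**Figure D4:**
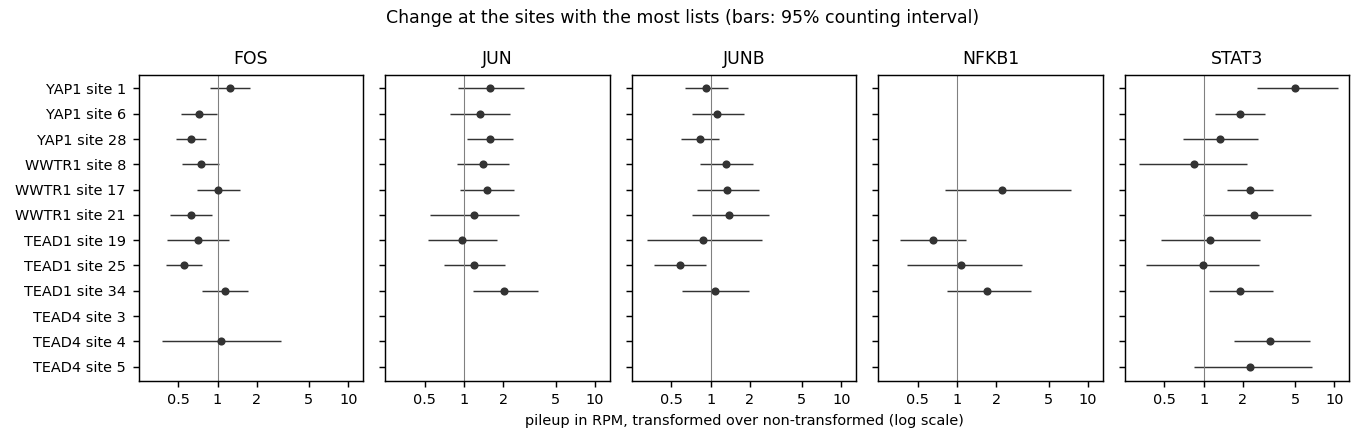
Ratio of pileup in RPM, transformed over non-transformed (horizontal axis, log scale), for the 5 proteins at the 3 sites of each locus with summits in the most lists, ties being broken by the summed RPM of the 10 lists. Points are ratios of single libraries, bars are exact 95% counting intervals, and no point is drawn where a protein was unlisted in a state. FOS lies at 0.554 at TEAD1 site 25 and 0.631 at YAP1 site 28, and STAT3 at 4.99 at YAP1 site 1 and 3.22 at TEAD4 site 4.

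Sites with all 5 proteins were more frequent in the transformed lists as deposited. There were 7 in non-transformed cells, of 109 sites with any protein (genome 3.68%), and 35 in transformed cells, of 149 (genome 17.4%). They numbered 0 and 12 at YAP1, 1 and 8 at WWTR1, 6 and 14 at TEAD1, and 0 and 1 at TEAD4. The NFKB1 list of non-transformed cells is the shortest, with 13252 peaks. Without NFKB1, the other 4 proteins met at 24 sites in non-transformed and 41 in transformed cells. With every list cut to its 13252 most significant peaks, all 5 met at 0 and 1 sites, and at 1 and 12 with the stricter threshold of −log10 q of at least 9.41. Genome shares were not counted for the 4 proteins or for these shorter lists. All 10 lists had a summit at 6 sites (genome 2.23%) and at least 9 lists at 22 (genome 7.44%), of which 8 were at YAP1, 5 at WWTR1, and 9 at TEAD1. At the 8 YAP1 sites the missing list could only be NFKB1 of non-transformed cells, which had 0 peaks in the YAP1 window. A summit in 1 list only was seen at 65 sites (genome 38.7%).

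**Figure D5:**
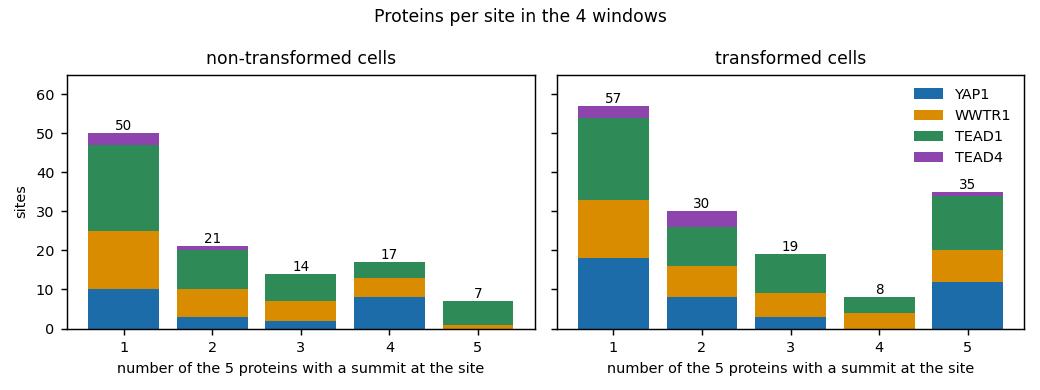
Number of sites (vertical axis) by how many of the 5 proteins had a summit there (horizontal axis), in non-transformed (left) and transformed cells (right), stacked by locus. Sites of all 5 proteins number 7 on the left and 35 on the right, and sites of 1 protein number 50 and 57.

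STAT3 and NFKB1 lay mostly at AP-1 sites, meaning sites with a FOS, JUN, or JUNB summit in the same state. STAT3 did so at 33 of 44 sites in non-transformed cells (genome 80.8%) and at 61 of 71 in transformed cells (genome 88.1%). NFKB1 did so at 7 of 9 (genome 86.5%) and 46 of 56 (genome 86.2%). Of the 40 sites where STAT3 was listed in transformed cells only, 21 had an AP-1 summit already in non-transformed cells (genome 62.7%). Another 12 had one in transformed cells only (genome 10333 of 47224), and 7 had none in either (genome 7268 of 47224). The same numbers for the 48 added NFKB1 sites were 36 (genome 73.6%), 5 (genome 7385 of 59373), and 7 (genome 8271 of 59373). FOS, JUN, and JUNB occurred together at 33 of 96 AP-1 sites in non-transformed cells (genome 26.1%) and at 50 of 130 in transformed cells (genome 38.8%). FOS without JUN or JUNB was found at 22 of the 96 (genome 27.5%) and 42 of the 130 (genome 25.1%). At YAP1 these were 3 and 15, at WWTR1 5 and 10, at TEAD1 12 and 12, and at TEAD4 2 and 5.

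Summits of different proteins within a site lay close together. From a FOS summit the median distance to the nearest JUNB summit was 15 bp in non-transformed (44 summits, interval 10 to 19) and 15 bp in transformed cells (62 summits, interval 11 to 24). The distance from FOS to JUN was 25.5 bp (48 summits, interval 15 to 35) and 14 bp (67 summits, interval 12 to 18), against 25 and 19 bp in the genome. STAT3 lay farther from FOS, at a median of 29 bp (33 summits, interval 16 to 57) and 35 bp (61 summits, interval 16 to 47), against 41 and 27 bp in the genome. In transformed cells NFKB1 was at a median of 34 bp from FOS (47 summits, interval 22 to 39), 23 bp from JUNB (37 summits, interval 17 to 34), and 43 bp from STAT3 (42 summits, interval 28 to 63). The genome-wide medians were 28, 28, and 32 bp. The intervals of the AP-1 pairs and of the pairs with STAT3 overlap in part, and distances were not tested.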

How the data were processed

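ChIP-seq of 5 proteins in ER-Src cells was analysed from 10 deposited peak lists, with 1 sample per protein and state. Groups were taken from the labels. Per the file headers, the authors called peaks in each sample with MACS 2.0.10.20131216 without a control, on reads of 36 bp, with 1 read per position, a genome size set to 2700000000 bp, the local background taken from 1000000 bp around, and q-values up to 0.05. The submitters' processing notes name Bowtie and hg19, with no version. The deposited pileup is an unscaled signal, the number of extended reads at the summit. The deposited significance values are −log10 of the p-value and q-value. Fold enrichment, as deposited by the authors, is the ratio of the pileup to MACS's local background. Start, end, and summit are 1-based.

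Members were taken by summit position. Summits with 150 bp on each side were merged into sites at an overlap of at least 1 bp, over all lists on chromosomes 1 to 22 and X. The members, lists, and rules were chosen with earlier results of these data known. Named in each locus were the 3 sites in the most lists (ties by summed RPM over the 10 lists, which decided in each locus), the highest site of each protein and state, the 2 highest STAT3 and NFKB1 sites of transformed cells only, and, over all loci, the 2 highest sites per protein of non-transformed cells only. These are descriptions, chosen by their values. Other sites are named nowhere. Ratio intervals are exact (Clopper-Pearson) and assume reads are independent. The merging was tested on simulated data, where 19988 of 19988 sites were recovered. Python 3.11.15, numpy 2.4.6, pandas 2.3.3, scipy 1.17.1, and matplotlib 3.10.9 were used. The last peak on chromosome 1 ends at 249200747, past the 248956422 bp of the GRCh38 chromosome at hand, so motifs at sites, gene annotation, and other Hippo pathway genes were not run. Alternatives were smaller windows, whole peaks, a stricter threshold, lists of equal length, a level minimum, other scalings, and narrower bounds.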

Additional observations from a re-analysis of the deposited data

How the results depend on the processing

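Of 75 alternative values, 49 stayed close to the reported one, 25 moved, and 1 turned direction. Windows of 50 bp on each side, whole peaks, and bounds drawn in by 10 kb moved none of the counts of sites by over 1.5 times. At a stricter threshold (−log10 q of at least 9.41), YAP1 had 18 sites, WWTR1 23, and TEAD1 34, and sites of transformed cells only were 23 of FOS, 15 of JUN, 11 of JUNB, 20 of NFKB1, and 17 of STAT3. With every list cut to the 13252 most significant peaks these were 5, 2, 3, 6, and 1, and among peaks of at least 2 RPM they were 1, 6, 5, 6, and 14. All of these settings keep fewer peaks by construction. Under a minimum, a site also counts where its peak of non-transformed cells fell below it. Sites of all 5 proteins numbered 1 in non-transformed and 12 in transformed cells at the stricter threshold, and 0 and 1 with lists of equal length. Without the NFKB1 libraries, a setting chosen after seeing the data, 24 sites of non-transformed cells held all the other proteins. The counts under these settings have no genome share beside them, since none was counted. With the genome-wide median set to 1, the STAT3 ratio turned to 0.952 and the JUN ratio moved to 1. By fold enrichment the JUNB ratio was 1.27, as it was across the genome (1.27). No paired analysis was possible because each group has 1 sample and no result comes from a test, and for the same reason no replicate could be left out. In non-transformed cells the NFKB1 list, from 4837474 reads, held no peak at these loci under 0.827 RPM.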
